A study of Mus musculus with 7 samples.

Results

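The Ebf genes (Ebf1, Ebf2, Ebf3 and Ebf4) and the nuclear factor I genes (Nfia, Nfib, Nfic and Nfix) were followed through 7 sorted cell populations of the mouse embryo that surround the beginning of the kidney. The members were the probes other than controls whose gene name in the array files was one of these 8 symbols. This gave 17 of 55681 distinct probes, and 8 of 27126 named genes. Every member had at least 1 probe, and no spot of a member was saturated or left out for a quality flag. All cells came from C57BL6J embryos with an Osr1-GFP knock-in, in which the green fluorescent protein GFP reports activity of Osr1, itself a transcription factor gene of mesoderm that forms kidney. GFP-negative cells came from the same kind of embryo and so carried the knock-in too. The zygosity of the allele and the number of embryos pooled are not given in the sources used here.

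At embryonic day 8.5 (E8.5), cells with and without GFP were sorted from the embryo. At E9.5, 3 populations were sorted from the caudal part of the embryo. The first was GFP-positive, carried the integrin Itga8 on its surface and lacked the receptor Pdgfra, a combination meant to enrich nephron progenitors and called the gate below. The second held the GFP-positive cells outside that gate, and the third the GFP-negative cells. At E11.5, the gate and the other GFP-positive cells were sorted from the metanephric mesenchyme, the tissue that forms both nephrons and renal stroma. The comparison of the gate with the other GFP-positive cells addresses how nephron progenitors differ from the mesenchyme around them. Each population had 1 array, so a difference between 2 arrays has no replicate check, and the spread between embryos and sorts is unknown.

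Ebf proteins are helix-loop-helix transcription factors that bind DNA as dimers at a palindromic site. They are best known for B lymphocyte commitment, neuron differentiation and the identity of adipocyte and bone marrow stromal precursors. Nuclear factor I proteins bind a palindrome built on the half-site TTGGC, also as dimers, and are known for the timing of differentiation in glia, lung, muscle and tooth. In mice, loss of Ebf1 impairs maturation of kidney glomeruli, and loss of Nfia causes defects of the ureter and kidney.

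Levels below are on the log2 scale, as the signal of a probe over the 75th percentile of its array, so that a level of 0 equals that percentile. A probe is called dim on an array where the scanner software did not find it well above background. Where 1 of 2 arrays was dim, the dim side took its own level or, where higher, the lowest level well above background on that array, and the fold is then a lower bound, written "at least". For each gene the probe with the highest mean level is called the main probe, and gene values are those of this probe. Differences of at least 2-fold were counted. Spot noise came from 399 probes printed 10 times per array, whose median standard deviation (SD) was 0.10 within an array, or 0.14 for a difference. For levels under -2 these were 0.26 and 0.37. Gaps between neighbours in the order of the 7 arrays were set against the noise at their own levels. No other error is covered. Levels of different probes depend on the probe and were not set against each other.

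The share of spots well above background lay between 56.2% and 84.1% over the 7 arrays, lowest for E8.5 GFP-negative cells and highest for the other GFP-positive cells of E9.5. The 2 arrays of E11.5 had 72.7% in the gate and 74.0% outside it. At E9.5 the arrays of the gate and of the GFP-negative cells were on one slide and the other 5 arrays on another, so the 2 GFP-positive populations of E9.5 were compared across slides and those of E11.5 within a slide. Pdgfra, used for the sort, was dim in the E11.5 gate and stood at 4.04 in the other GFP-positive cells, while Itga8 stood at 2.82 in the gate and at -1.31 in the other cells. In the E9.5 gate Pdgfra was well above background at -0.52, and it was at 3.44 in the other GFP-positive cells, 15.5-fold lower in the gate. Osr1 was dim in both GFP-negative populations and well above background in all 5 GFP-positive ones.

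Ebf1, Ebf3, Nfia and Nfic had their highest main-probe level of all arrays in the other GFP-positive cells of E11.5. These members also had an entry in the RefSeq promoter table (build GRCm38.p6). The start regions of 3 of them, all but Nfic, are shown first, so that their unlike base composition can be seen. Each runs 5′ to 3′ from 250 bases before the start to 50 bases after it. Capitals mark the Nfi half-site TTGGC, on either strand, and the core CCCNNGGG of the Ebf site, where the search found them. They were Ebf1 at chr11:44617850-44618149 on the plus strand, Ebf3 at chr7:137314396-137314695 on the minus strand, and Nfia at chr4:97581693-97581992 on the plus strand.
Ebf1: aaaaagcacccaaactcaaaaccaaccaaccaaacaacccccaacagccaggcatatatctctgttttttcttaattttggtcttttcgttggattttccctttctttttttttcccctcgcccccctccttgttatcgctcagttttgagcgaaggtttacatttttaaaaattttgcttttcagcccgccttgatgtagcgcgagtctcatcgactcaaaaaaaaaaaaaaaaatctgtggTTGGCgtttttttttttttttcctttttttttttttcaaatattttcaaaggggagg
Ebf3: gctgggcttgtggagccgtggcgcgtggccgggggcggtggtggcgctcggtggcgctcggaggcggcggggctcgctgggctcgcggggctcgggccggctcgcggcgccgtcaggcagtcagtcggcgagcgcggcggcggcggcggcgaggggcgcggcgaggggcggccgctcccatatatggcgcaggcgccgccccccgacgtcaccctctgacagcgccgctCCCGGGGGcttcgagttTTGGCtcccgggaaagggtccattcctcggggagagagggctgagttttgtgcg
Nfia: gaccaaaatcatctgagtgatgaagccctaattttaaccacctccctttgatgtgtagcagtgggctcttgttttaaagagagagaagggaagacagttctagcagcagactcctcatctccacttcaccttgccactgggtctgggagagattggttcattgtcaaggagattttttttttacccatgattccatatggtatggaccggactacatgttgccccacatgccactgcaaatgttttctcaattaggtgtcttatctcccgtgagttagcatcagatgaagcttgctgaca

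The Ebf3 window had 77% G and C, with 46 CpG dinucleotides, against medians of 52.7% and 7 over all 32851 promoters of the table. It held 1 TTGGC, 4 bases before the start, and 1 CCCNNGGG, 21 bases before it. The Nfia window had 44.7% G and C, 2 CpG and neither motif. The Ebf1 window had 36.7% G and C, 9 CpG and 1 TTGGC, 7 bases before the start. A 2nd Ebf1 window in the table had 53% G and C and no match. On both strands, TTGGC was found in 46.7% of all promoters and CCCNNGGG in 13.7%. The full Nfi palindrome (TTGGC, then 5 unspecified bases, then GCCAA) contains the half-site at each end and was in 0.0365% of promoters. The full Ebf site, the core with T before it and A after it, was in 0.904%. Neither full motif was found in any of the 10 windows of the 6 members in the table, which has no entry for Ebf2 and Nfib. A match is a description of letters, not a binding site.

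The array measured each member through 60-base probes, and 4 of them that hold at least 1 reading frame without a stop codon are shown here. They set 2 members that separated the E11.5 populations, Nfia and Nfib, beside 2 that did not, Ebf4 and Nfix. The Nfia probe is at chr4:97680930-97680989 (plus strand), the Nfib probe at chr4:82144224-82144283 (minus), the Ebf4 probe at chr2:130187371-130187430 (plus) and the Nfix probe at chr8:87250416-87250475 (minus), all on build mm9, per the array files. None is the main probe of its gene, and exon annotation of that build was not used here.
Nfia A_66_P115098: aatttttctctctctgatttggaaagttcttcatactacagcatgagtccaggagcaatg
Nfib A_55_P2086687: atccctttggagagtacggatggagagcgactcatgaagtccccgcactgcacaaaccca
Ebf4 A_52_P78975: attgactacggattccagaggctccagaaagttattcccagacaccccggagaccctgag
Nfix A_55_P2085574: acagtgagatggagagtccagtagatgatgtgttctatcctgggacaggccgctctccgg

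At E11.5 most of the 2 families separated the 2 populations of the metanephric mesenchyme. Nfia, Ebf3, Ebf1, Nfib and Ebf2 were lower in the gate than in the other GFP-positive cells, by 59.5-fold, 55.5-fold, at least 21.6-fold, 21.2-fold and at least 3.13-fold. Nfic was 1.79-fold lower, Nfix 1.36-fold lower and Ebf4 1.03-fold higher, all within 2-fold. Thus 5 of 8 members were at least 2-fold lower and 0 at least 2-fold higher, while over all 21711 genes measured 9.42% were lower and 10.5% higher by that margin, 19.9% in all. The median difference was -3.03 over the members and 0.15 over all genes. With bulk RNA, fewer cells of a type and less RNA per cell cannot be told apart.

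**Figure D1:**
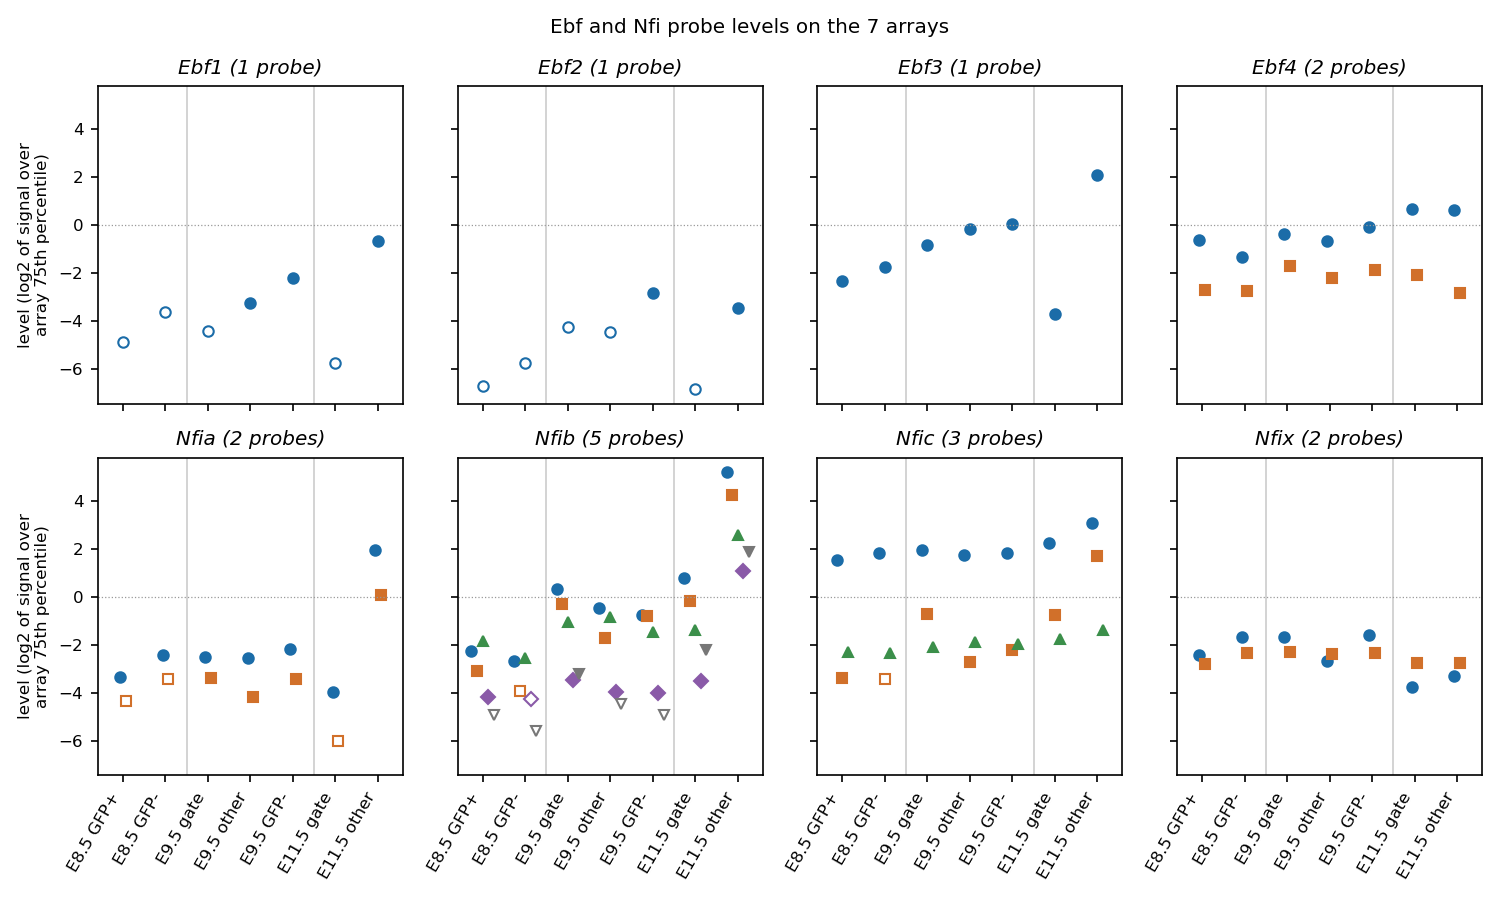
Levels of every Ebf and Nfi probe (vertical axis, log2 of signal over the array's 75th percentile) on the 7 arrays, with a panel for each gene. Circles are main probes and other shapes further probes, open symbols are dim, and vertical lines part the stages. In the other GFP-positive cells of E11.5, Ebf1, Ebf3, Nfia, Nfib and Nfic had their highest main-probe level of the 7 arrays.

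Ebf1, the B lymphocyte commitment factor that is also found in stromal and adipocyte precursors, was measured by 1 probe (A_55_P2065513, chr11:44818438-44818497, mm9). At E8.5 its levels were -4.87 in GFP-positive cells and -3.62 in GFP-negative cells, both dim. At E9.5 they were -4.41 in the gate, which was dim, -3.27 in other GFP-positive cells and -2.23 in GFP-negative cells. At E11.5 they were -5.78 in the gate, again dim, and -0.68 in other GFP-positive cells. Ebf1 was therefore well above background on 3 arrays, with the other GFP-positive cells of E11.5 highest by 1.54 over E9.5 GFP-negative cells, and in neither gate.

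Ebf2, a factor of brown adipocyte precursors, osteoblast lineage cells and migrating neurons, stayed near background (A_51_P386562, chr14:68048145-68048204, mm9). It was well above background on 2 arrays, at -3.47 in the other GFP-positive cells of E11.5 and at -2.84 in E9.5 GFP-negative cells. The 5 other arrays were dim, with levels between -6.85 and -4.27, which have no order. The gap between the 2 measured arrays was 0.63, less than 2 SDs of spot noise for a difference at such levels.

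Ebf3, which acts in neurons and in bone marrow stromal cells, was well above background on all 7 arrays (A_51_P246543, chr7:144385490-144385549, mm9). At E8.5 its levels were -2.33 in GFP-positive and -1.75 in GFP-negative cells. At E9.5 they were -0.86 in the gate, -0.20 in other GFP-positive cells and 0.02 in GFP-negative cells, and at E11.5 they were -3.73 in the gate and 2.07 in other GFP-positive cells. The 2 extremes of the whole series thus lay within the same tissue and stage. At E9.5 the gap of 0.21 between GFP-positive cells outside the gate and GFP-negative cells was the 1 gap between neighbours in the order that did not pass 2 SDs of spot noise.

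Ebf4, the family member with the least known role, differed from the other 3. Its main probe (A_55_P2011981, chr2:130196035-130196094, mm9) had levels of -0.66 in GFP-positive and -1.35 in GFP-negative cells of E8.5. At E9.5 it had -0.38 in the gate, -0.69 in other GFP-positive and -0.09 in GFP-negative cells. At E11.5 the gate had 0.65 and the other GFP-positive cells 0.60. The 2nd probe, printed above, ranged from -2.86 in other GFP-positive cells of E11.5 to -1.70 in the E9.5 gate and correlated with the main probe at r = 0.18 over the 7 arrays, so the 2 probes gave different orders. At E11.5 it was 1.72-fold higher in the gate.

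Nfia, which starts glial differentiation and, in mice, is needed for a normal ureter, was low on 6 arrays and high on 1. Its main probe (A_55_P2194958, chr4:97781622-97781681, mm9) had levels of -3.37 in GFP-positive and -2.42 in GFP-negative cells of E8.5. At E9.5 it had -2.53 in the gate, -2.56 in other GFP-positive and -2.18 in GFP-negative cells. At E11.5 the gate was at -3.96 and the other GFP-positive cells were at 1.93. The next array in the order was 4.11 lower, and 4 of the 5 remaining gaps between neighbours stayed within 2 SDs of spot noise at their levels. The 2nd probe, printed above, was dim in the E11.5 gate and at 0.05 in the other GFP-positive cells, so at least 35.9-fold lower in the gate, and the 2 probes correlated at r = 0.97 over the arrays.

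Nfib, needed for lung maturation and forebrain development, reached the largest range of any main probe of the 8 genes, at 7.87 log2 units (A_55_P2143431, chr4:81936100-81936159, mm9). Its levels were -2.29 in GFP-positive and -2.69 in GFP-negative cells of E8.5. They were 0.30 in the gate, -0.49 in other GFP-positive and -0.77 in GFP-negative cells of E9.5. At E11.5 the gate stood at 0.77 and the other GFP-positive cells at 5.18. On the main probe the E11.5 gate was the second in the order, unlike for Ebf3 and Nfia, while A_55_P2086692 placed it the third and A_55_P2086687 the fourth. All 5 Nfib probes were lower in the gate at E11.5, the 4 others by 21.5-fold (A_55_P2086682), 15.5-fold (A_55_P2086687), 24.2-fold (A_55_P2086692) and 17.2-fold (A_66_P135165). Their pairwise correlations over the 7 arrays lay between 0.909 and 0.988.

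Nfic, known from tooth root formation, was well above background everywhere on its main probe (A_51_P477419, chr10:80859057-80859116, mm9). Levels were 1.52 in GFP-positive and 1.83 in GFP-negative cells of E8.5. They were 1.92 in the gate, 1.73 in other GFP-positive and 1.81 in GFP-negative cells of E9.5. At E11.5 they were 2.24 in the gate and 3.08 in other GFP-positive cells. Its 3 probes disagreed on size. Against 1.79-fold on the main probe, A_55_P2122329 (chr10:80859363-80859422, mm9) was 5.53-fold lower in the E11.5 gate, with levels of -0.77 in the gate and 1.70 in other cells, and A_55_P2122334 was 1.30-fold lower.

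Nfix, linked to fetal muscle and neural stem cells, did not have its highest level at E11.5. Its main probe (A_55_P2095880, chr8:87228759-87228818, mm9) had -2.42 in GFP-positive and -1.70 in GFP-negative cells of E8.5. It had -1.67 in the gate, -2.70 in other GFP-positive and -1.62 in GFP-negative cells of E9.5. At E11.5 it had -3.77 in the gate and -3.32 in other GFP-positive cells, the 2 lowest levels. The 2nd probe, printed above, ranged only from -2.81 to -2.31 and differed by -0.01 on the log2 scale between the E11.5 gate and the other GFP-positive cells. At E11.5, Ebf1, Ebf3, Nfia and Nfib were thus at least 2-fold higher outside the gate, and so was Ebf2, as a bound near background. Ebf4 and Nfix were within 2-fold, and Nfic depended on the probe. Whether stromal cells carried these differences was not tested.

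**Figure D2:**
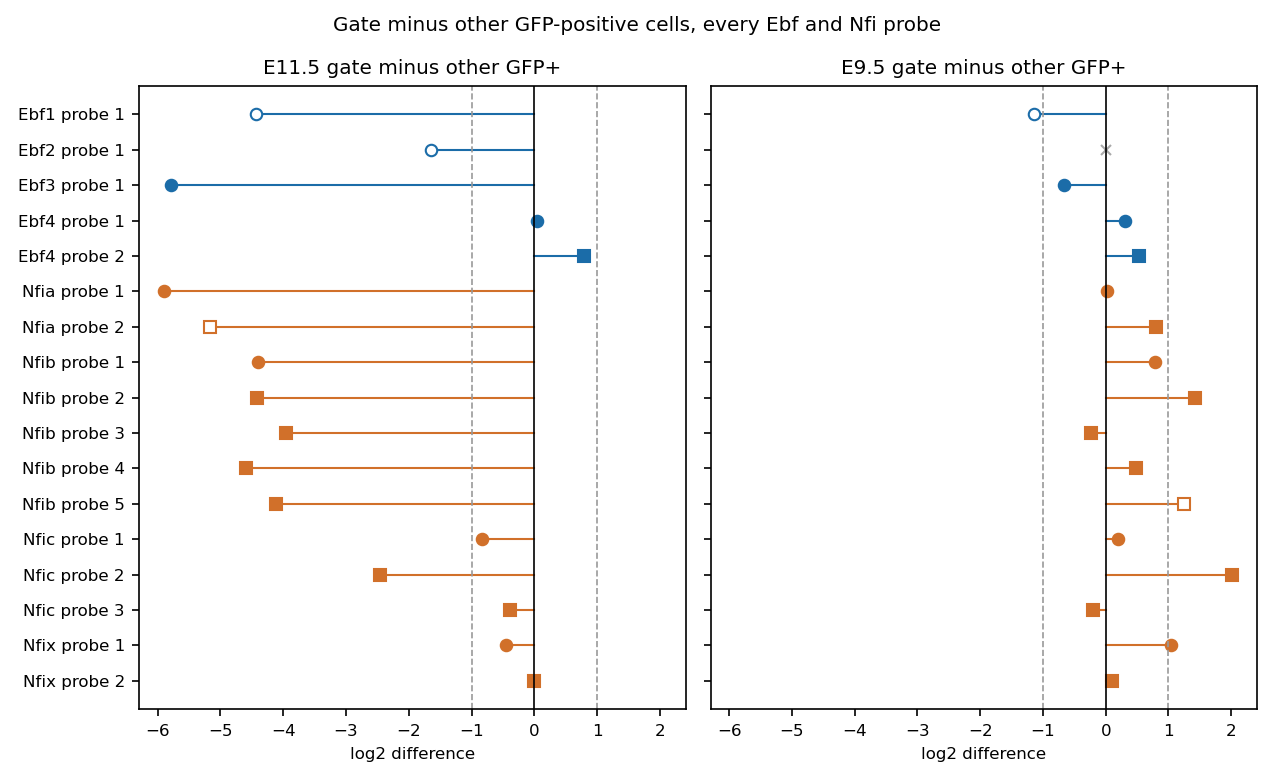
Gate minus other GFP-positive cells for all 17 probes (horizontal axis, log2 difference), E11.5 on the left and E9.5 on the right. Blue is Ebf and orange Nfi, circles are main probes and squares further probes, open symbols are bounds, a grey cross means no fold, and dashed lines mark 2-fold. At E11.5 all 5 Nfib and both Nfia probes lie at -3.95 or below, and at E9.5 no probe lies below -1.14.

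The E11.5 values depended on the background correction. With normexp background correction, which adds an offset and so compresses dim signals, the log2 differences were -3.75 for Ebf3, -3.74 for Nfia, -4.26 for Nfib, -1.65 for Ebf1 and -0.24 for Ebf2, so that Ebf2 no longer passed 2-fold. Nfic passed 2-fold without scaling, at -1.05, and with the mean of its probes, at -1.23. Ebf4 was at -0.17 in the gate without scaling, the opposite sign to its 0.05 with scaling. The share of all calls that were lower was 47.3%, against 57.2% with quantile normalization and 64.7% without scaling, and the median of all genes was 0.15, 0.04 and -0.06 under these 3 scalings.

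The E11.5 separation was set beside lists of genes with known roles. Of 17 genes of renal stroma and mesenchyme, 14 were at least 2-fold lower in the gate and 0 higher, with a median of -2.34. Among them Foxd1, the transcription factor that marks renal stroma, was at 1.69 in the gate and 6.14 in the other GFP-positive cells. Of 13 nephron progenitor genes, 7 were higher and 2 lower, with a median of 1.96. Six2, which maintains nephron progenitors, was at 4.10 in the gate and -3.58 in the other cells. The 5 lower members thus stood on the side of the stromal list.

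Genes reported to work with Ebf factors did not move as 1 group. Of 7 listed, 6 were measured at E11.5, 2 were at least 2-fold lower in the gate and 0 higher, with a median of -0.57. Prdm16, a brown fat determination factor, was dim in the gate and stood at 2.96 in other GFP-positive cells, at least 188-fold lower. Pparg, the adipocyte nuclear receptor, was 4.40-fold lower in the gate, at -2.12 against 0.02. Zfp423 and Zfp521, zinc finger partners of Ebf proteins, were at 3.27 and -2.15 in the gate, against 4.06 and -1.81 in other cells, within 2-fold. Of 6 B lymphoid genes measured of 9 listed, 0 were lower and 2 (Cd79a and Cd79b) higher in the gate.

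Of 9 glial genes linked to Nfi factors, 3 were at least 2-fold lower in the E11.5 gate, 1 was higher and the median was -0.86. Sox9, which acts before Nfia in glia, was 15.4-fold lower, at -0.43 in the gate and 3.52 in other GFP-positive cells. The glutamate transporter gene Slc1a3 was 12.3-fold lower, at -2.74 against 0.87, and Zcchc24 was 3.27-fold lower. Fabp7, a radial glia gene, was higher in the gate, at -0.25 against -1.31.

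Neurons and neural crest cells also express Ebf and Nfi genes, so their markers were read beside the members. Of 10 neuron genes, 2 were at least 2-fold lower in the E11.5 gate (Stmn2 58.1-fold and Tubb3 10.8-fold) and 1 was higher (Dcx 6.18-fold). All 10 were well above background in both populations, and their summed signal, in units of the array's 75th percentile, was 307.4 in the gate and 315.5 in other GFP-positive cells. Snap25 and Elavl4, bright on all 7 arrays, carried most of it, and without these 2, a split made after the values were seen, the sum of the other 8 was 10.22 in the gate and 15.98 in other GFP-positive cells. Single genes weighed heavily in these 2 sums, Dcx at 2.95 in the gate and Tubb3 at 3.22 in other GFP-positive cells. The neural crest gene Foxd3 and the neural progenitor gene Sox2 were dim in both populations. The part of neural cells in the Ebf and Nfi differences was not tested.

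**Figure D3:**
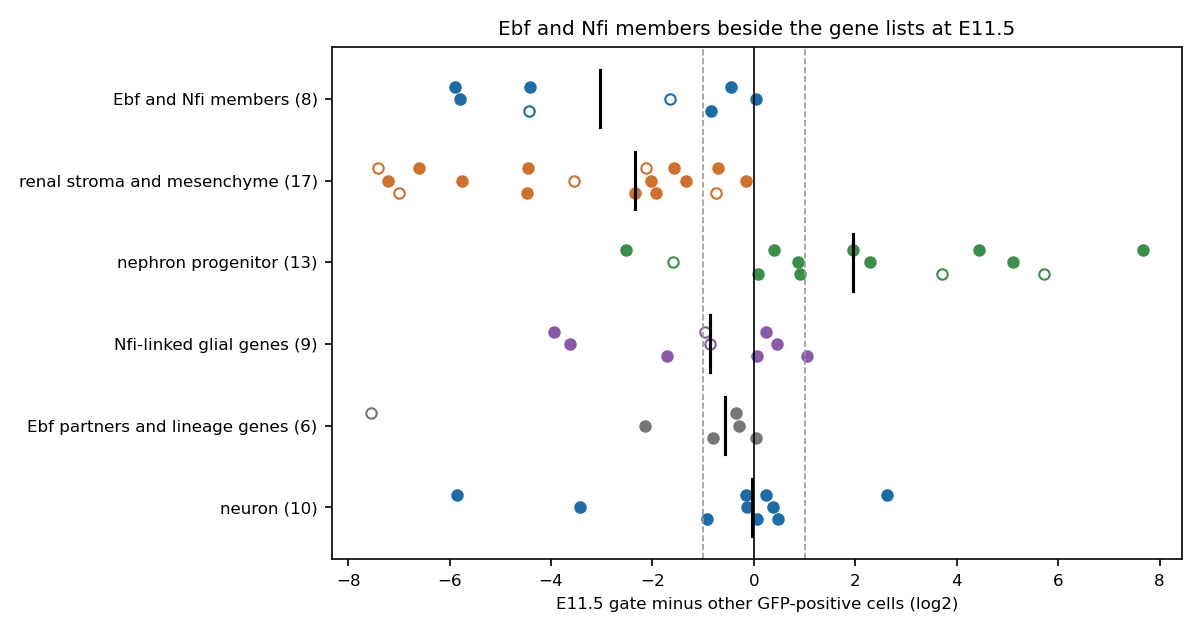
Gate minus other GFP-positive cells at E11.5 (horizontal axis, log2) for the 8 members and for 5 gene lists. Each point is a gene, open points are bounds, black bars are medians, dashed lines mark 2-fold, and numbers in brackets count the measured genes. The median was -3.03 for the members, -2.34 for stroma and 1.96 for nephron progenitor genes.

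At E9.5 few members differed between the gate and the GFP-positive cells outside it. Ebf1 was lower in the gate by at least 2.20-fold and Nfix was 2.05-fold higher, while 5 of 7 measured members lay within 2-fold and Ebf2 was dim in both. Over all 23610 genes measured, 9.38% were lower and 5.13% higher, 14.5% in all, and the medians were 0.20 for members and -0.15 for all genes. Ebf3 was 1.58-fold lower in the gate, Nfia differed by 1.02-fold and Nfib was 1.72-fold higher. The stromal list at this stage had 9 of 17 genes lower and 1 higher in the gate, with a median of -1.33.

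At E9.5 the probes of Nfib and of Nfic did not all lie on one side, but the lower values were under 2 SDs of spot noise. They were -0.24 for A_55_P2086687 of Nfib and -0.20 for A_55_P2122334 of Nfic. The 2nd Nfix probe differed by 1.07-fold, and the 5 Nfib probes ran from -0.24 to 1.42. The Nfic probe A_55_P2122329 was 4.04-fold higher in the gate, against 1.15-fold on the main probe. With normexp correction no member passed 2-fold, and with quantile normalization Ebf1 did not. The share of calls that were lower was 64.6%, against 46.9% with quantile normalization, under which the median of all genes was -0.01. The 2 arrays were on different slides, so slide and sorted population cannot be told apart.

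Ebf1 and Ebf2 were lower in both GFP-positive populations of E9.5 than in GFP-negative cells. Against GFP-negative cells, the gate was lower in Ebf1 by at least 4.53-fold and in Ebf2 by at least 2.68-fold, and higher in Nfib by 2.10-fold, with 5 of 8 members within 2-fold. Over all 21490 genes, 6.41% were lower and 5.66% higher, 12.1% in all. The other GFP-positive cells were lower than GFP-negative cells in Ebf1 by 2.06-fold, in Ebf2 by at least 3.13-fold and in Nfix by 2.13-fold, a Nfix difference that its 2nd probe gave as 1.04-fold. Of 23735 genes measured, 5.17% were lower and 8.57% higher in that comparison, 13.7% in all. Both comparisons share the GFP-negative array, which was on the slide of the gate and not on that of the other GFP-positive cells. With normexp correction none of these members passed 2-fold. In the gate against GFP-negative cells, Nfib was at 0.88 without scaling and 0.85 with the mean of its probes, and Ebf3 at -1.07 without scaling.

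Markers of other tissues differed strongly on that array. The summed signal of the neural progenitor genes was 1.24 in the gate, 1.38 in other GFP-positive cells and 25.3 in GFP-negative cells. For the blood genes it was 1.52 in the gate, 9.80 in other GFP-positive cells and 1112 in GFP-negative cells. Neural progenitor and blood genes were all well above background in GFP-negative cells. Of 10 neuron genes, 5 were at least 2-fold lower in the gate and 6 in other GFP-positive cells than in GFP-negative cells, and 0 were higher. The neural crest gene Sox10 was at -2.23 in the gate, -2.83 in other GFP-positive cells and -0.31 in GFP-negative cells. Foxd3 and Erbb3, also of neural crest cells, were at least 2-fold lower in both GFP-positive populations too. Of 7 somite and muscle genes measured, 4 were lower and 0 higher in each GFP-positive population. Endothelial genes were not lower, with 3 of 7 higher in the gate, and of 6 epithelial genes 1 was lower in the gate and 2 higher in other GFP-positive cells. The part of these cells in the higher Ebf1 and Ebf2 was not tested.

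At E8.5 none of the 6 measured members differed by 2-fold between GFP-positive and GFP-negative cells. Over all 20106 genes, 6.08% were lower and 7.03% higher in GFP-positive cells, 13.1% in all. The largest member differences were -0.95 for Nfia, -0.72 for Nfix and 0.69 for Ebf4, and Ebf1 and Ebf2 were dim in both populations.

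Across stages, the 2 GFP-positive populations were compared separately, with no array in common. In the other GFP-positive cells, 7 of 8 members were at least 2-fold higher at E11.5 than at E9.5. The folds were 50.7 for Nfib, 22.5 for Nfia, 6.01 for Ebf1, 4.80 for Ebf3, 2.56 for Nfic, 2.44 for Ebf4 and at least 2.02 for Ebf2. Nfix was 1.54-fold lower. Over all 23710 genes measured, 22.1% were lower and 6.36% higher at E11.5, 28.5% in all. Their median was 1.81, against -0.36 for all genes. That split moved with scaling. The share of calls that were lower was 77.7%, against 46.1% with quantile normalization and 66.9% without scaling, and the median of all genes was -0.00 under quantile normalization, with the same 7 members past 2-fold. With normexp correction Ebf2 was at 0.17, and with the mean of its probes Ebf4 was at 0.33.

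The further probes gave the same side for Nfia and Nfib. The 2nd Nfia probe was 18.6-fold higher at E11.5, and the 4 further Nfib probes were 62.8-fold, 10.4-fold, 32.7-fold and at least 81.0-fold higher. The Nfic probe A_55_P2122329 was 21.5-fold higher, and A_55_P2122334 was 1.43-fold higher. The 2nd Ebf4 probe went the other way, 1.55-fold lower. The stromal list had 8 of 17 genes higher and 1 lower at E11.5, with a median of 0.98. Markers of other cell types also differed between these 2 arrays. At least 2-fold lower at E11.5 were 4 of 6 epithelial genes, 4 of 6 somite and muscle genes, 4 of 7 endothelial genes and 4 of 6 blood genes, and 0 of these lists were higher. Of 10 neuron genes, 2 were lower and 2 higher, Stmn2 by 69.2-fold and Tubb3 by 3.04-fold. Their part in the member differences was not tested. The tissue of origin changed with the stage, so stage and tissue cannot be told apart.

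**Figure D4:**
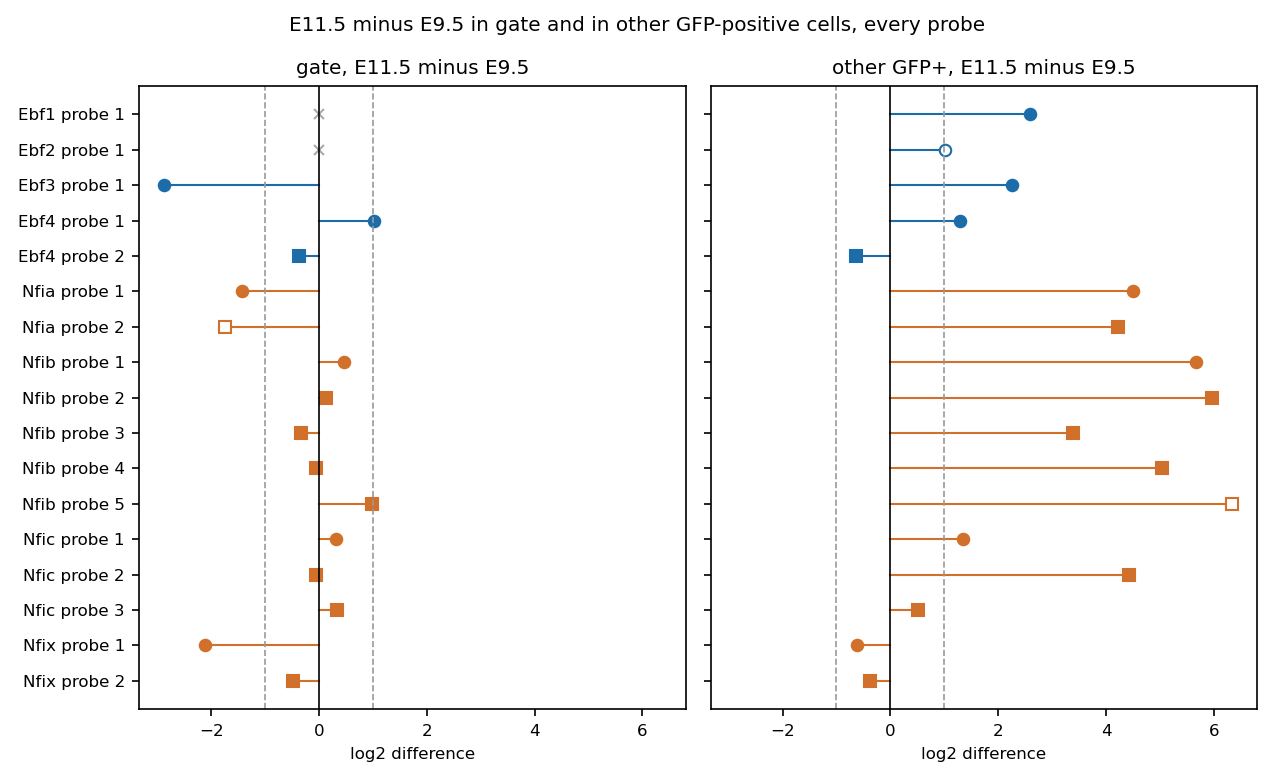
E11.5 minus E9.5 (horizontal axis, log2 difference) for all 17 probes, in the gate on the left and in the other GFP-positive cells on the right. Symbols are as in the plot of gate differences. In other GFP-positive cells all Nfia and Nfib probes are higher by at least 3.38 log2 units, and in the gate the highest of them is at 0.98.

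In the gate, Ebf3 was 7.31-fold lower at E11.5 than at E9.5, Nfix 4.30-fold lower and Nfia 2.69-fold lower, and Ebf4 was 2.04-fold higher. Nfib and Nfic lay within 2-fold, and Ebf1 and Ebf2 were dim in both gates. Of 21567 genes measured, 11.9% were lower and 6.05% higher, 17.9% in all, and 3 of 6 measured members were lower. The 2nd probes gave at least 3.34-fold lower for Nfia, 1.39-fold lower for Nfix and 1.30-fold lower for Ebf4, so for Ebf4 the 2 probes had opposite signs. The array of the E9.5 gate was on another slide than those of the E11.5 gate and of E8.5, so in both comparisons over time that use it slide and stage cannot be told apart. With normexp correction, Ebf3 was the 1 member past 2-fold, at -1.27, and without scaling Ebf4 was at 0.96. The share of calls that were lower was 66.3%, against 53.4% with quantile normalization.

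In the E9.5 gate, Nfib was 6.01-fold higher and Ebf3 2.77-fold higher than in GFP-positive cells of E8.5, and the other 4 measured members lay within 2-fold. Over all 21377 genes, 6.84% were lower and 12.7% higher, 19.5% in all. The share of calls that were lower was 35% and, with quantile normalization, 50.8%. With normexp correction Ebf3 was at 0.85, and with the mean of its probes Nfic was at 1.11. The 4 further Nfib probes were higher at E9.5 by 6.93-fold, 1.73-fold, 1.61-fold and at least 3.28-fold.

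The gate effect was also fitted over both stages with limma, on 4 arrays with the stage as a block and 1 residual degree of freedom. The spread in this fit is the difference of the gate effect between the 2 stages, not a spread between replicates. A gene with a large difference at only 1 stage therefore has a large standard error. From all genes limma borrowed a prior spread worth 9.76 degrees of freedom, and 20.1 with normexp. None of the 8 members passed an adjusted p of 0.05, and 83 of 24164 genes did, or 0.343%. The limma estimates, gate minus other, were -2.79 for Ebf1 (standard error 0.68, adjusted p = 0.165), -3.23 for Ebf3 (0.90, adjusted p = 0.253), -2.93 for Nfia (1.01, adjusted p = 0.436) and -1.81 for Nfib (0.91, adjusted p = 0.875). At an unadjusted p under 0.05, limma gave 3 of 8 members and 6.56% of all genes. With normexp correction limma called Ebf3 (adjusted p = 0.0107).

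The genes whose levels over the 7 arrays were most like each member were picked from 5255 genes that ranged over at least 2 log2 units, by Pearson correlation. Levels under the lowest level well above background on their array were first raised to it. For Nfib these were Nacc2 (r = 0.98), Rtn4r (0.98) and Irf2bpl (0.97). For Nfia they were Ndst2 (0.99), LOC100047015 (0.98) and Cntn1 (0.98). The array of other GFP-positive cells of E11.5, 4.11 above the next for Nfia, weighed most in these Nfia matches. For Ebf3 they were Synpo (0.97), Gdf15 (0.96) and Lima1 (0.96), and for Ebf1, well above background on 3 arrays, they were Slc2a9, Zfpm2 and Dach2 (each 0.97). Ebf2 was well above background on 2 arrays, which set its correlations, so its matches are not given. Nfix was most like Gm1078 (0.98), Olfr1338 (0.97) and AU018505 (0.97), all at low levels. Ebf4 and Nfic ranged over less than 2 units and were not matched. These correlations share the same 7 arrays and carry no test.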

How the data were processed

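RNA of 7 sorted populations was measured on 1 single-colour (Cy3) 60-base-probe Agilent array each. Per the labels' protocols, 10 ng of total RNA was amplified with a whole-transcriptome kit. Per the submitters' processing notes, the authors read the signal intensity of each spot in Agilent Feature Extraction 10.7.3.1. Per the file headers it is a background-subtracted and detrended linear intensity, with no scaling between arrays. The deposited value table holds the same intensity and served as the unscaled alternative.

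Flagged spots were left out, spots of a probe were averaged, and log2 values were scaled to the 75th percentile of each array, which lay between 230.7 and 300.0. A probe counted as well above background when the scanner software's flag said so for a share of its spots of 0.5 or more. Of 55681 probes, 26425 took their symbol from a RefSeq table by accession, and 20323 had no gene name. The number of arrays limits the precision. Differences between 2 arrays have no test. The pooled gate effect was fitted with limma 3.58.1 (R 4.3.3; lmFit and eBayes, Benjamini-Hochberg 5%), and tables were made with pandas 2.3.3 and numpy 2.4.6. The steps were tested on simulated data.

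The members and the 13 gene lists were chosen with earlier results of these data known. The rule for named genes took the 8 members, and the 3 genes most correlated with each member that ranged over at least 2 log2 units. List genes are examples, not all list genes are reported here, and matches of Ebf2 are left out. The 6 alternatives were quantile normalization, no scaling, normexp with an offset of 50, the mean of all probes, no filter on dim probes, and genes above background on all arrays compared. The slide as a random block could not be fitted.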

Additional observations from a re-analysis of the deposited data

Results flagged for a closer look

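For 4 members the main-probe difference between the gate and the other GFP-positive cells had opposite signs at the 2 stages. Each value came from 1 array a group, and the difference between stages was not tested. Nfia was at -5.90 at E11.5 and 0.03 at E9.5, the second of which is within spot noise. Its 2nd probe also had opposite signs. Nfib was at -4.41 at E11.5 and 0.78 at E9.5. Its probe A_55_P2086687 was lower in the gate at both stages, at -3.95 and -0.24, the second under 2 SDs of spot noise. The remaining Nfib probes had opposite signs, with A_55_P2086692 at 0.48 at E9.5, also under 2 SDs. Nfic was at -0.84 at E11.5 and 0.20 at E9.5, the second under 2 SDs of spot noise at its level. Its probe A_55_P2122329 changed sign, at -2.47 and 2.01. A_55_P2122334 did not, at -0.38 and -0.20, the second under 2 SDs of spot noise. Nfix was at -0.45 at E11.5, under 2 SDs of spot noise, and 1.04 at E9.5. Its 2nd probe was at -0.01 and 0.10, both under 2 SDs of spot noise. Ebf2 was dim on both E9.5 arrays and has no fold there.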

How the results depend on the processing

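Counts of members past 2-fold in either direction are given here where they moved most, with the main count after each. Smaller moves also occurred and are not all listed. Among them, the gate against other GFP-positive cells at E11.5 gave 6 without scaling, 6 with the mean of all probes and 4 with normexp, against 5. Other GFP-positive cells across stages gave 6 with normexp and 6 with the mean of all probes, against 7. Comparing the gate of E9.5 with the GFP-positive cells outside it gave 1 with quantile normalization, 0 with normexp, 1 with the mean of all probes and 1 with genes above background on both arrays, against 2. Setting that gate against GFP-negative cells gave 0 with normexp and 1 with genes above background on both arrays, against 3. GFP-positive cells outside the gate, set against GFP-negative cells, gave 0 with normexp, against 3. For the E9.5 gate over GFP-positive cells of E8.5 normexp gave 1, against 2, and for the 2 gates across stages it gave 1, against 4. E8.5 gave 1 without the filter and bound, against 0. E11.5 gave 3 with genes above background on both arrays, against 5, since fewer members were left. In limma, normexp called 1 member, against 0. By its construction normexp with an offset compresses dim signals. For the remaining changes the cause was not tested. No called member value changed sign.

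Over all genes, limma called 83 with the main settings, 478 with normexp, 28 with genes above background on all arrays, and 0 with quantile normalization, without scaling or without the filter. At an unadjusted p under 0.05 these last 3 gave 1304, 1288 and 1209 genes. At E9.5, 53.1% of the calls between gate and GFP-negative cells were lower, and 69.3% without scaling. Outside the gate that share was 37.6%, with 57.8% under quantile normalization and 58.3% without scaling, and at E8.5 it was 46.4%, with 36.3% without scaling. The medians of all genes in these 3 comparisons were 0.01, 0.13 and 0 with the main scaling, and -0.18, -0.07 and 0.13 without scaling. The slide block was not run because its correlation could not be estimated with 3 arrays on one slide and 1 on the other. No paired analysis was possible because each group has 1 array, other than the limma fit with the stage as a block. Signal near background limits Ebf1 and Ebf2.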

Other observations

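Among the 28 pairs of members, correlations of main-probe levels over the 7 arrays are given as a description, since all pairs share the arrays. Levels under the lowest level well above background on their array were first raised to it, which affected Ebf1 and Ebf2. Ebf1, Ebf3 and Nfia followed each other most closely across the 2 families, with Ebf1 well above background on 3 arrays and r = 0.92 for Ebf1 and Ebf3, 0.90 for Ebf1 and Nfia and 0.88 for Ebf3 and Nfia. Nfia stood 4.11 higher in other GFP-positive cells of E11.5 than on the next array, so that array weighed most in its correlations. Nfib was closer to Nfic (0.94) and Ebf4 (0.80) than to Ebf1 (0.61) or Ebf3 (0.61). Nfix had negative correlations with Ebf4 (-0.70) and with Nfib (-0.59). Both values for Ebf4 rest on its main probe, which ranged over less than 2 log2 units. That probe correlated with the 2nd Ebf4 probe at r = 0.18, and pairs with the 2nd probe were not computed.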
